A study of Mus musculus with 2 samples.

Results

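Non-cycling C1q-high interstitial macrophages were the lung cells that carried at least 10 UMIs (unique molecular identifiers, each standing for 1 captured RNA molecule) of C1qa, C1qb and C1qc together. They also had fewer than 10 UMIs per 10000 of the alveolar macrophage genes Chil3, Ear1 and Krt79, fewer than 5 UMIs of Spp1 and Arg1, and fewer than 5 UMIs of the cell-cycle genes Top2a, Mki67, Birc5, Cdk1, Pclaf and Rrm2. The rule was applied to cells with at most 20% mitochondrial UMIs, at most 20000 UMIs and at least 500 genes. The members were thus chosen by measured expression in the cells themselves, and there were 544 of them among the 10088 cells that passed these filters (5.39%).

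The study compared single lung cells of tolerant, asthmatic and control mice in 1 droplet-sequencing experiment. Asthma was produced by sensitizing female C57BL/6J mice by intraperitoneal injection of ovalbumin (OVA) with the adjuvant Alum, then giving repeated intranasal OVA. Tolerant mice first inhaled OVA and then went through that same asthma protocol. Control mice received Alum with no OVA and intranasal saline, so that adjuvant was shared by all 3 treatments. Lungs of 8 animals were pooled, by the study's methods, which leave unsaid whether that number holds for each treatment. The cells were sorted into dendritic cells, alveolar macrophages and interstitial macrophages, tagged with a hashtag antibody that marks the treatment and with an antibody to CLEC12A, and loaded on 2 lanes. The gate that sorted interstitial macrophages is not given in the sources used here. Each treatment was thus 1 pool and the lanes were technical repeats, so no difference between treatments was tested. Intervals cover counting error only.

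Interstitial macrophages live in the lung tissue around airways and vessels, whereas alveolar macrophages lie in the air spaces and clear surfactant. C1q is the recognition molecule of the classical complement pathway and macrophages make it in tissue, where it tags dying cells and immune complexes. Many interstitial macrophages also present antigen on MHC class II, and cells of this kind can be replaced from blood monocytes, which carry the chemokine receptor CCR2. Retnla encodes the secreted protein RELMα and Ccl24 an eotaxin that attracts eosinophils through CCR3, and both are induced by the type 2 cytokines IL-4 and IL-13. Interferons induce another set of genes, among them Isg15 and Irf7, through factors that bind repeats of GAAA in promoters.

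C1q-high macrophages took the largest share of cells in the tolerance pool and the smallest in the control pool. They were 296 of 2701 tolerance cells (11.0%, exact 95% binomial interval 9.81 to 12.2), 191 of 4025 asthma cells (4.75%, 4.11 to 5.45) and 57 of 3362 control cells (1.70%, 1.29 to 2.19). Lane by lane the shares were 9.87% and 12.1% in tolerance, 5.09% and 4.38% in asthma, and 1.77% and 1.62% in control. The lanes of the 3 pools did not overlap. A second share was taken among these cells together with the alveolar, the Spp1/Arg1 and the cycling C1q gates described further on. It was 22.3% in tolerance, 9.63% in asthma and 2.65% in control. The sort and the mixing of equal cell numbers set these denominators, so the shares do not give cells per lung.

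**Figure D1:**
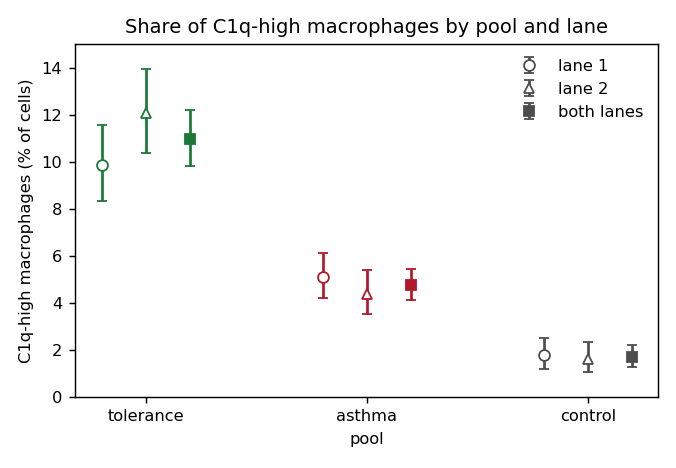
Share of C1q-high macrophages among cells that passed the filters (y axis, percent) in the tolerance, asthma and control pools, with a square for both lanes together, open symbols for each lane and bars for exact 95% binomial intervals. The tolerance pool stood at 11.0%, the asthma pool at 4.75% and the control pool at 1.70%, and the lanes of different pools did not overlap.

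The rule itself fixed the C1q level, which is given as a description. C1q UMIs per cell ran from 10 to 285 with a median of 53, and the median per 10000 UMIs was 97.8 in tolerance, 93.2 in asthma and 103 in control. C1qa, whose chain forms the C1q trimer with those of C1qb and C1qc, stood at 3853 CPM (UMIs per 1000000, summed over the member cells of a pool) in tolerance, 3663 in asthma and 3784 in control. The 3 genes neighbour each other on the minus strand of mouse chromosome 4 (mm10): C1qb at chr4:136880129-136886187, C1qc at chr4:136889804-136893065 and C1qa at chr4:136895917-136898803. The 56 cells just inside the limit (10 to 14 C1q UMIs) had 807 CPM of Apoe, 25.3 of the lectin gene Cd209a and 0 of the dendritic cell receptor gene Flt3. The 75 cells just outside it (5 to 9 UMIs, other limits kept) had 553 CPM of Apoe, 236 of Cd209a and 19.5 of Flt3.

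Markers that the rule did not use went in part with a macrophage label and set limits to it. Of 20 interstitial macrophage genes 18 were called higher than in the alveolar gate described further on. The other 2, Mertk and Dab2, were called lower. Csf1r, the receptor for the macrophage growth factor, was at 648 CPM in tolerance, 660 in asthma and 670 in control. Ccr2 reached 976 CPM in tolerance, 966 in asthma and 840 in control. It was seen in 85.1%, 78.0% and 66.7% of member cells of these pools at median depths of 7037, 4796 and 4157 UMIs, against 3.62%, 4.74% and 11.9% of B cells at 2257, 1996 and 2063 UMIs. With every cell thinned to 2000 UMIs the member shares were 69.1%, 66.7% and 64.8%, over 291, 177 and 54 cells. Ccr2 was thus seen in a larger share of members than of B cells, which does not set macrophages apart from monocytes. The B cell gate did not leave out doublets, so its values are not a measure of free RNA alone.

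Lyve1, Folr2 and Timd4, markers of resident perivascular macrophages, were scarce. Other genes of the resident macrophage list were not: 6 of its 17 had a mean of at least 50 CPM over the pools, among them Ccl8 and Mrc1. Lyve1, a hyaluronan receptor, stood at 5.11 CPM in tolerance, 8.85 in asthma and 10.9 in control, Folr2, a folate receptor, at 41.8, 16.7 and 29.0 CPM, and Timd4, a phosphatidylserine receptor, at 1.39, 5.90 and 3.62 CPM. Siglecf and Flt3, of neighbouring types, were at or near 0, but not every gene of those types was. Outside the rule, 3 of 20 alveolar macrophage genes and 2 of 12 dendritic cell genes had a mean of at least 50 CPM over the pools. Siglecf, of alveolar macrophages, had 3.72 CPM in tolerance, 3.93 in asthma and 0 in control, and Flt3 had 0.465, 3.93 and 7.24 CPM.

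Other cell types' marker lists were low in the members, apart from monocyte and alveolar macrophage genes, but not equal between pools. Summed over its 10 genes, the B cell list stood at 86.0 CPM in tolerance, 94.3 in asthma and 391 in control, where the lanes were at 146 and 590 CPM. The T and NK list stood at 2.79, 1.97 and 116 CPM, and lane 1 of the control pool held most of it (251 CPM, against 6.55 in lane 2). Dendritic cell genes summed to 147 CPM in tolerance, 200 in asthma and 445 in control, where 243 CPM were Cd209a. Alveolar macrophage genes summed to 971, 1229 and 746 CPM, and classical monocyte genes to 3328, 3427 and 2506 CPM. Their part in the differences between pools was not tested.

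The control pool was the thinnest, and its lanes differed most. Summed UMIs of the members were 2151763 in tolerance, 1017542 in asthma and 276142 in control. Of the 2944 genes with a mean of at least 50 CPM over the pools and outside the rule, 6 were past 2-fold between the lanes of the tolerance pool (0.204%), 21 between those of asthma (0.713%) and 279 between those of control (9.48%). A gene was counted between pools only if the summed CPM differed at least 2-fold and each lane went the same way. No cell barcode was shared between pools, and each member's own hashtag was its highest.

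Both OVA pools differed from the control pool by more genes than from each other. In asthma over control 145 genes were past 2-fold higher (4.93%) and 99 lower (3.36%). In tolerance over control 113 were higher (3.84%) and 111 lower (3.77%). In tolerance over asthma 4 were higher (0.136%) and 16 lower (0.543%). The first 2 comparisons share the control pool, whose own lanes differed 2-fold at the share of genes given above. Lane 2 alone, where no second lane had to match, gave 205 higher and 152 lower in asthma over control, 188 and 184 in tolerance over control and 15 and 25 in tolerance over asthma. Lane 1 alone gave 238 and 167, 178 and 178, and 15 and 28. Scaling by TMM (trimmed mean of M-values) in place of total UMIs turned the tolerance-over-control counts to 155 higher and 76 lower.

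Retnla, Ccl8 and Apoe are markers given for these cells that the rule did not use. In the summed counts Retnla and Ccl8 stood higher, and Apoe lower, in both OVA pools than in control. Retnla, on chromosome 16 (chr16:48842551-48844461, plus strand), stood at 491 and 2724 CPM in the lanes of tolerance, 3748 and 1392 in those of asthma and 81.0 and 269 in those of control. Both OVA pools lay above control in each lane, while their own lanes overlapped each other. The ratio was 13.9 in asthma over control (exact 95% interval 10.5 to 18.7) and 9.69 in tolerance over control (7.35 to 13.04). In tolerance over asthma it was 0.698, with 0.131 in lane 1 and 1.96 in lane 2, so the 2 lanes went opposite ways.

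Few cells carried most of the Retnla. A Retnla UMI was found in 81 tolerance cells (27.4%), 59 asthma cells (30.9%) and 6 control cells (10.5%), against 1.45%, 1.98% and 1.40% of B cells in these pools. After thinning, the member shares were 22.0%, 29.4% and 7.41%. The 5 cells richest in it held 56.0% of its UMIs in tolerance, 45.3% in asthma and 98.0% in control. With a C1q limit of 5 UMIs in place of 10 the Retnla ratio was 3.11 in asthma over control and 1.99 in tolerance over control, and with a limit of 20 it was 35.3 and 28.7, so this gene's size depended on where the limit lay. Leaving out the 5 richest cells of each pool left 1 Retnla UMI in control, with ratios of 372 in asthma over control (66.7 to 14705) and 206 in tolerance over control (36.9 to 8143). That step took 5 of the 6 control cells with a Retnla UMI, against 5 of 59 in asthma and 5 of 81 in tolerance. It was thus unequal between pools.

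Ccl8, a chemokine that in mice acts on CCR8, was nearly absent from control. On chromosome 11 (chr11:82115185-82116799, plus strand), it had 294 and 751 CPM in the lanes of tolerance, 125 and 352 in those of asthma and 8.10 and 0 in those of control, where it was 1 UMI. The share of cells with a Ccl8 UMI was 16.2% in tolerance, 7.85% in asthma and 1.75% in control, against 0%, 0.395% and 0.699% of B cells. After thinning, the member shares were 12.7%, 5.08% and 1.85%. Ccl8 was also 1 of the 4 genes past 2-fold higher in tolerance over asthma, with a ratio of 2.34 (2.04 to 2.70; 2.36 and 2.13 by lane). Without the 5 richest cells of each pool that ratio was 7.53, since those cells held 84.4% of the asthma pool's Ccl8 and 49.7% of the tolerance pool's. That step was unequal, as it took 5 of 15 asthma cells with a Ccl8 UMI and 5 of 48 in tolerance.

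Apoe, the lipid carrier apolipoprotein E, went the other way in the summed counts. On chromosome 7 (chr7:19696109-19699188, minus strand), it had 2728 and 1642 CPM in the lanes of tolerance, 2846 and 2199 in those of asthma and 7100 and 4043 in those of control. The control lanes lay above those of both OVA pools, with ratios of 0.466 in asthma over control and 0.387 in tolerance over control. The median cell did not follow this order, with 3.17 Apoe UMIs per 10000 in tolerance, 6.79 in asthma and 1.88 in control. An Apoe UMI was found in 64.2% of tolerance, 66.5% of asthma and 54.4% of control cells. In B cells, whose gate did not leave out doublets, the shares were 31.9%, 30.8% and 37.1%. A part of the member shares may thus not be the members' own RNA. In control 5 cells held 50.5% of the Apoe UMIs, and without the 5 richest cells of each pool the ratios were 0.670 and 0.555, no longer past 2-fold. Those 5 were a larger part of the 57 control cells than of the 191 asthma or 296 tolerance cells. Leaving them out thus weighed most on control, and the change in ratio is a description only.

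**Figure D2:**
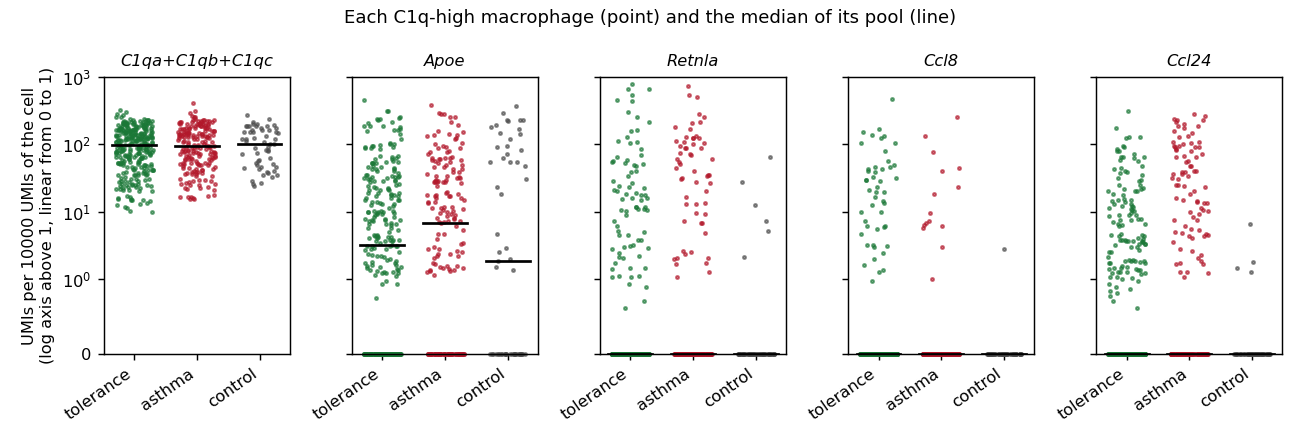
Values in single C1q-high macrophages (y axes, UMIs per 10000 UMIs of the cell, log scale above 1) of the C1q genes, Apoe, Retnla, Ccl8 and Ccl24 by pool, each point a cell and each line the median of its pool. C1q medians, which the rule held up, were 97.8 in tolerance, 93.2 in asthma and 103 in control, while for Retnla, Ccl8 and Ccl24 most cells were at 0 and few control cells had any UMI.

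Ccl24 had the largest ratio of asthma over control among the named genes. On chromosome 5 (chr5:135569937-135573049, minus strand), it reached 753 and 1132 CPM in the lanes of tolerance, 3127 and 2723 in those of asthma, and 8.10 and 26.2 in those of control. The 3 pools did not overlap. It was 161-fold higher in asthma than in control (69.1 to 498, from 5 UMIs in control) and 53.7-fold higher in tolerance than in control (23.0 to 166). In tolerance over asthma the ratio was 0.333 (0.315 to 0.352; 0.241 and 0.416 by lane). A Ccl24 UMI was found in 43.2% of tolerance, 45.0% of asthma and 7.02% of control cells, against 5.07%, 4.74% and 0.699% of B cells, so the share was close in the OVA pools while the amount was not. After thinning, the member shares were 29.2%, 40.7% and 5.56%.

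**Figure D3:**
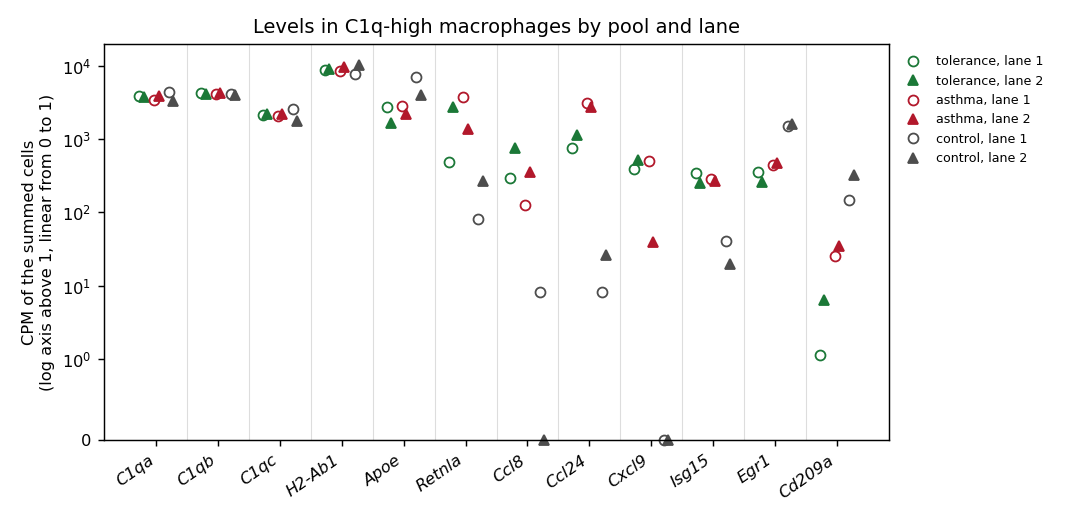
Level of 12 genes in the C1q-high macrophages of each lane (y axis, CPM of the summed cells, log scale above 1), with open circles for lane 1 and filled triangles for lane 2 of the tolerance, asthma and control pools. Ccl24, Ccl8 and Retnla lay higher in both OVA pools than in control in each lane, Apoe and Cd209a lower, and Cxcl9 was apart between the lanes of asthma.

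Of the 22 chemokine genes listed, 17 could be compared. In asthma over control 6 were past 2-fold higher, in order of ratio Ccl24, Ccl8, Cxcl9, Ccl12, Cxcl10 and Ccl5. The same 6 were past it in tolerance over control. Over all genes compared, 4.93% and 3.84% were past 2-fold higher in these comparisons. Ccl12, a CCR2 ligand, had 224 CPM in tolerance, 425 in asthma and 29.0 in control. Cxcl9 and Cxcl10 are CXCR3 ligands induced by interferon, and in asthma lane 1 held most of both. Cxcl9 had 393 and 519 CPM in the lanes of tolerance, 510 and 39.1 in those of asthma and no UMI in control. The Cxcl9 level was thus at least 42.9-fold higher in tolerance and at least 25.1-fold higher in asthma than in control, against a floor of 3 counts over the pool. Without lane 1 the bounds were 26.4 in tolerance and 1.99 in asthma, and without lane 2 they were 16.2 and 21.0. Cxcl10 had 321 and 189 CPM in the lanes of tolerance, 239 and 25.4 in those of asthma and 24.3 and 6.55 in those of control.

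Other chemokines were lower. Cxcl2, which attracts neutrophils, had 960 CPM in tolerance, 1286 in asthma and 2922 in control, and Cxcl1, of the same family, 24.2, 26.5 and 145 CPM, where 5 control cells held every Cxcl1 UMI of their pool. Past 2-fold lower in tolerance over asthma were 5 chemokines of the list, where 0.543% of all genes compared were. Ccl3 had 59.0 CPM in tolerance and 192 in asthma, a ratio of 0.308. Ccl7 had 99.9 and 296 CPM, Ccl17, which attracts T cells through CCR4, 184 and 456 CPM, and Ccl4 148 and 319 CPM. Ccl24 was the other. Over the whole list the median log2 ratio in tolerance over asthma was -0.23, against -0.04 over all genes compared.

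The alternative activation list, made of genes known to respond to IL-4 and IL-13, summed to 5757 CPM in tolerance, 9862 in asthma and 3375 in control. Without Ccl24 and Retnla the sums were 2994, 4375 and 3172 CPM, so that tolerance then lay below control. Of the 23 genes of this list present in the table, 21 had a higher CPM in asthma than in control and 14 a higher CPM in tolerance than in control, before any minimum. Over all genes outside the rule with a UMI in either pool, 54% of 12525 were higher in asthma than in control, 54.8% of 13171 higher in tolerance than in control and 52.9% of 13494 lower in tolerance than in asthma. Past 2-fold in asthma over control were Ccl24, Retnla, Tgm2, a transglutaminase, and Mrc1, the mannose receptor, and in tolerance over control Ccl24 and Retnla. Mrc1 had 411 CPM in tolerance, 697 in asthma and 348 in control. The tolerance pool had the lower CPM in 21 of the 23, set against asthma, and the higher in 2. Neither list nor sum was tested.

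Rnase2a and Ly6a had no UMI in control. Rnase2a, an eosinophil-associated ribonuclease gene, reached 103 and 233 CPM in the lanes of tolerance and 328 and 201 in those of asthma. Ly6a, the interferon-responsive surface protein Sca-1, reached 378 and 184 CPM in the lanes of tolerance and 247 and 99.7 in those of asthma. Against the floor of 3 counts Rnase2a was at least 24.3-fold and Ly6a at least 15.9-fold higher in asthma than in control. Il4i1, a secreted amino acid oxidase, had 58.6 CPM in tolerance, 119 in asthma and 0 in control. Ly6c2, a monocyte surface gene, had 96.7, 58.0 and 0 CPM in these pools. C3, the central complement protein, was the complement gene past 2-fold, at 295 CPM in tolerance, 206 in asthma and 47.1 in control.

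Genes of the type I interferon list stood higher in both OVA pools than in control. Isg15, the ubiquitin-like modifier, had 345 and 253 CPM in the lanes of tolerance, 289 and 272 in those of asthma and 40.5 and 19.7 in those of control, a ratio of 9.67 in asthma over control (4.84 to 22.6) and 10.1 in tolerance over control (5.08 to 23.4). Irf7, the transcription factor that amplifies the response, had 165 CPM in tolerance, 161 in asthma and 18.1 in control. Zbp1, a nucleic acid sensor, had 123, 130 and 18.1 CPM. The control lanes lay below all OVA lanes for Isg15, Irf7 and Zbp1.

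All 33 genes of the list had a higher CPM in asthma than in control, and all 33 a higher CPM in tolerance than in control, with no minimum applied, where 54% and 54.8% of all genes with a UMI did. Both lanes agreed for 32 and 33 of them. Above the minimum were 14, of which 14 were past 2-fold higher in asthma over control and 13 in tolerance over control (Ifitm3, at a ratio of 1.96, was not). None was past 2-fold in tolerance over asthma, where the median log2 ratio was -0.10. The list summed to 5133 CPM in tolerance, 5608 in asthma and 1640 in control, with medians per cell of 29.9, 35.5 and 10.1 UMIs per 10000. The same list was also higher in the OVA pools in cells of other kinds. It summed to 4398, 3094 and 520 CPM in the alveolar gate and to 2755, 2578 and 1834 CPM in B cells of the tolerance, asthma and control pools. Of 24 interferon-gamma genes 11 could be compared, and Cxcl9, Ifi47, Tap1 and Psmb9 were past 2-fold higher in each OVA pool over control. Over all genes compared, 4.93% were past 2-fold higher in asthma over control and 3.84% in tolerance over control.

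Interferon-activated factors are known to act through repeats of GAAA, and the promoters of these genes were searched for them. The motif searched was GAAA, any 2 bases and GAAA again, or TTTC, any 2 bases and TTTC on the other strand, from 250 bases before to 50 after the start of transcription in RefSeq promoters of GRCm38.p6. It was found in 3.44% of 32851 promoters. Of the 14 interferon genes past 2-fold, 10 matched a RefSeq promoter and 6 of these held the motif (Bst2, Ifitm3, Isg15, Phf11b, Slfn5 and Trim30a). Windows of 60 bases follow for 4 of them, and for Cxcl10 as an interferon-induced chemokine, on the strand of the gene with the matched bases in capitals. Overlapping matches run together in Isg15 (3 matches) and Bst2 (2 matches). A match is a description of these letters, not of a bound site.
Isg15 (chr4:156200856-156200915, minus strand): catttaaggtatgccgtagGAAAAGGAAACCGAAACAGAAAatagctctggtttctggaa
Bst2 (chr8:71537565-71537624, minus strand): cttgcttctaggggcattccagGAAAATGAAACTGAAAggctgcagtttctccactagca
Phf11b (chr14:59341346-59341405, minus strand): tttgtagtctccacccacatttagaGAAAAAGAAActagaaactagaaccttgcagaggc
Slfn5 (chr11:82951922-82951981, plus strand): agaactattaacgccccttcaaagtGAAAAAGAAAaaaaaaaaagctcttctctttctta
Cxcl10 (chr5:92349068-92349127, minus strand): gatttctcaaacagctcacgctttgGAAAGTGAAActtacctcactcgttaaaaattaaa

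STAT6, the factor downstream of IL-4, is known to bind TTC and GAA spaced by 4 bases. That motif reads the same on both strands and was found in 6.95% of promoters. The promoter of Retnla, the IL-4-induced gene among the markers, held 1 match, in capitals below. Neither motif was found in the 5 promoters matched for 3 of the 4 genes Ccl24, Ccl8, Cxcl9 and Apoe, or in those of the 2 C1q genes matched.
Retnla (chr16:48842439-48842498, plus strand): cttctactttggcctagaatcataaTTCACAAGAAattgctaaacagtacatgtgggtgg

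Immediate early and stress genes, which cells switch on within minutes of stimulation and also during tissue digestion, stood lower in the OVA pools. Egr1, a transcription factor of this kind, had 355 and 261 CPM in the lanes of tolerance, 437 and 467 in those of asthma and 1498 and 1618 in those of control, a ratio of 0.289 in asthma over control and 0.192 in tolerance over control. Jun, part of the AP-1 factor, had 380 CPM in tolerance, 520 in asthma and 1488 in control. Of the 22 genes 7 were past 2-fold lower in asthma over control, with a median log2 ratio of -0.61, and 9 in tolerance over control, with a median of -0.85, against 0.06 and 0.03 over all genes compared. None was past 2-fold higher in either. Over all genes compared, 3.36% were past 2-fold lower in asthma over control and 3.77% in tolerance over control.

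The list stood highest in control in other cells as well. It summed to 13077 CPM in tolerance, 15148 in asthma and 23752 in control in the members, with per-cell medians of 119, 132 and 217 UMIs per 10000. In the alveolar gate the sums were 10157, 11086 and 14272 CPM, and in B cells 10048, 9809 and 12936 CPM. Hspa1a and Hspa1b, near-identical copies of a heat shock protein gene whose reads are hard to tell apart, were past 2-fold lower in tolerance over asthma, at 254 and 182 CPM in tolerance, against 548 and 374 CPM in asthma. Handling and treatment cannot be told apart with 1 pool for each treatment.

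**Figure D4:**
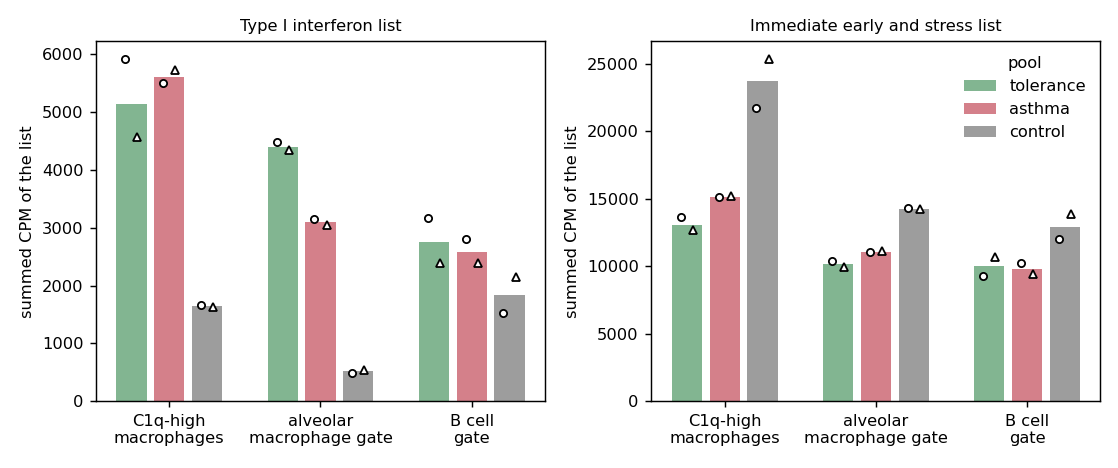
Summed level of the type I interferon list (left) and of the immediate early and stress list (right) in C1q-high macrophages, the alveolar gate and B cells (y axes, CPM), with bars for the tolerance, asthma and control pools and open symbols for their lanes (circle, lane 1 and triangle, lane 2). The interferon list was lowest and the immediate early list highest in control in each of the 3 kinds of cell.

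Cd209a had the lowest ratio in both OVA pools. On chromosome 8 (chr8:3743397-3748984, minus strand), this lectin gene of dendritic cells and some macrophages had 1.11 and 6.39 CPM in the lanes of tolerance, 25.7 and 35.2 in those of asthma and 146 and 321 in those of control. The pools did not overlap, and the ratio was 0.126 in asthma over control, 0.0172 in tolerance over control and 0.137 in tolerance over asthma. Hpgd, which inactivates prostaglandins, had 31.1 CPM in tolerance, 63.9 in asthma and 304 in control. Nlrp3, an inflammasome sensor, had 51.6, 43.2 and 148 CPM, and the cytokine gene Tnf 40.0, 58.0 and 188 CPM. The dendritic cell list that holds Cd209a, given earlier, was also highest in control. Cd209a stood at 236 CPM just outside the C1q limit, 25.3 just inside it and 31.1 in all members. Flt3 was higher outside that limit too. A link of these values to the difference between pools was not tested.

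MHC class II genes and most general macrophage genes stayed within 2-fold between pools. Of the 11 MHC class II genes 7 could be compared and none was past 2-fold between any 2 pools. They summed to 51527 CPM in tolerance, 52244 in asthma and 57778 in control. Of 20 interstitial macrophage genes, 1 was past 2-fold higher in asthma over control (Aif1, a calcium-binding macrophage protein, at 675 CPM in tolerance, 615 in asthma and 297 in control) and 2 were lower (the scavenger receptor gene Stab1 and the LPS co-receptor gene Cd14). In tolerance over control Aif1 was past 2-fold higher, and Adgre1 and Stab1 were lower. Over all genes compared, 4.93% were past 2-fold higher and 3.36% lower in asthma over control. The shares were 3.84% and 3.77% in tolerance over control. Of the 20 genes, 14 lay below control in asthma and 15 in tolerance. Their median log2 ratios were -0.30 and -0.42, against 0.06 and 0.03 over all genes compared. In tolerance over asthma none of the 20 was past 2-fold.

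Tolerance and asthma differed in 20 genes past 2-fold. AW112010 had 311 and 314 CPM in the lanes of tolerance, against 176 and 82.1 in those of asthma, a ratio of 2.43. Acp5, tartrate-resistant acid phosphatase, had 280 and 238 CPM in the lanes of tolerance, against 138 and 97.7 in those of asthma, a ratio of 2.17. The lanes of the pools did not overlap for AW112010 or Acp5. Lower in tolerance, beside the chemokines, Cd209a, Hpgd and the heat shock genes, were Sdc4, the proteoglycan syndecan-4, with 236 CPM in tolerance and 508 in asthma, and Lifr, a cytokine receptor, with a ratio of 0.465. Fabp5, a fatty acid binding protein, had 558 CPM in tolerance, 1104 in asthma and 123 in control, and at a ratio of 0.506 lay just short of the fold in tolerance over asthma.

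Among themselves the members split unevenly by MHC class II. Most cells had much of it, with 465 of 544 at 300 UMIs per 10000 or more, while 30 were under 100 and 5 lay between 100 and 150. The limit of 100 was chosen after the values were seen, so what follows is a description. These cells were 13 of 296 in tolerance (4.39%, 2.36 to 7.39), 7 of 191 in asthma (3.66%, 1.49 to 7.41) and 10 of 57 in control (17.5%, 8.75 to 29.9), of which 8 came from lane 1 of the control pool. A limit of 50 gave 6, 5 and 9 cells in these pools, and one of 150 gave 15, 9 and 11. Their C1q was like that of the others, with medians of 96.1 and 97.6 UMIs per 10000, and so was the interferon list, with 28.1 and 28.7.

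Several genes, chosen after their values were seen, differed between the cells low in MHC class II and the rest. Apoe stood at 8181 CPM in them, against 2215 in the rest, and was higher in all 3 pools (5501 against 1969 CPM in tolerance, 8770 against 2336 in asthma, and 11986 against 3945 in control). Ccl8 was at 2384 against 326 CPM, though at 0 against 4.43 in control, and was found in 7 of the 30 cells. The platelet factor gene Pf4 was at 1125 against 190 CPM, the selenium carrier gene Selenop at 1583 against 436, the lysosomal protease gene Ctsd at 3039 against 602 and Stab1 at 458 against 83.0. Folr2 was at 273 against 21.9 CPM, though at 0 against 17.2 in asthma, and was found in 8 of the 30 cells. Atp6v0d2, an alveolar macrophage marker, was at 159 against 8.21 CPM, found in 7 of the 30 cells. Gpnmb was at 153 against 18.2 CPM, and both were higher in all 3 pools. Lower in them were Ccr2, at 82.6 against 1005 CPM, the monocyte gene Plac8, at 0 against 315, the integrin gene Itgax, at 121 against 443, and Cxcl9, at 6.36 against 389. Axl, an engulfment receptor, at 172 against 417 CPM, and Retnla, at 769 against 1943, were lower in them in each pool. Ccl24 was at 464 against 1521 CPM. With these 30 cells left out, an alternative added after the data were seen, Apoe had ratios of 0.592 in asthma over control and 0.499 in tolerance over control, and Ccl8 was at 3.20 in tolerance over asthma.

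**Figure D5:**
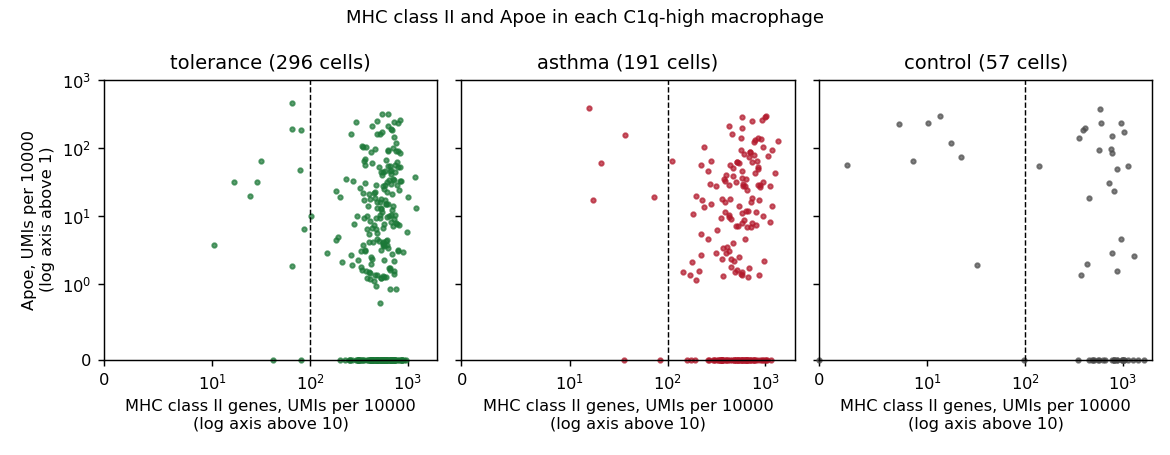
MHC class II genes (x axis, UMIs per 10000 of the cell, log scale above 10) against Apoe (y axis, UMIs per 10000 of the cell, log scale above 1) in single C1q-high macrophages of the tolerance, asthma and control pools, with a dashed line at 100 MHC class II UMIs per 10000. The 30 cells left of the line held 8181 CPM of Apoe, against 2215 in the rest.

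A cut on 7 genes of resident macrophages (Lyve1, Folr2, Cd163, Timd4, Cbr2, Fcna and Gas6) was made as well. At least 2 UMIs of these were found in 46 cells, 25 in tolerance, 15 in asthma and 6 in control (8.45%, 7.85% and 10.5%), a range of a graded score and not a cell type. Ccl8 stood at 3744 CPM in these cells, against 142 in the other 498, Retnla, which was lower in the cells low in MHC class II, at 7484 against 1420, Apoe at 9022 against 1939, Ccr2 at 495 against 1002 and Cxcl9 at 26.3 against 401. Over the 544 cells Spearman's rho was 0.352 between the resident genes and Ccl8, 0.456 between C1q and Apoe and 0.210 between Retnla and Ccl8. The rule itself selected on C1q, so the value for C1q and Apoe only describes the range the rule kept. The cells share their libraries, and rho was lower or of the other sign in the 57 control cells (-0.08, 0.31 and -0.05 for these pairs).

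The members were then set against 3 other gates drawn on the same cells. The alveolar gate held 4556 cells with at least 10 UMIs per 10000 of Chil3, Ear1 and Krt79 and under 10 C1q UMIs. The Spp1/Arg1 gate held 295 cells with at least 5 UMIs of Spp1 and Arg1 and no C1q limit. The cycling C1q gate held 72 cells with at least 5 UMIs of the cell-cycle genes. UMIs were summed for each pool and gate and compared over the 3 pools by edgeR's quasi-likelihood test with the pool as a block and Benjamini-Hochberg adjustment over all genes tested. Since every gate was drawn on expression in these cells, genes that vary with the rule's genes had to differ. The calls thus say how steadily a gene differed over the 3 pools, not that the gates are separate cell types.

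Against the alveolar gate 1635 of 9998 genes were called higher in C1q-high macrophages (16.4%) and 1679 lower (16.8%). Without tolerance these counts were 1109 and 1078, and without asthma 824 and 869. Cx3cr1, the fractalkine receptor, had 158 CPM in tolerance, 150 in asthma and 290 in control (log2 fold change 5.46 ± 0.23 SE, adjusted p = 1.62e-07). Apoe differed by 5.34 ± 0.32 (adjusted p = 1.3e-06), Ccl8 by 5.39 ± 0.31 (1.01e-06) and Retnla by 5.07 ± 0.55 (6.06e-05), all 3 higher in each pool. These 3 are markers given for the class, chosen with earlier results of these data known, so their calls are not independent support. In control Ccl8 rested on 1 UMI of the members (3.62 against 1.29 CPM). Nes, the intermediate filament nestin, at 7.68 ± 0.28, and Cd72, a lectin of antigen-presenting cells, at 6.55 ± 0.22, were among the 10 highest. Mertk, an engulfment receptor often used to define macrophages, was lower in the members, with 43.2 CPM against 183 in tolerance, 51.1 against 180 in asthma and 57.9 against 286 in control (-1.96 ± 0.15, adjusted p = 4.72e-06). Mcoln3, a lysosomal cation channel gene, and Slc6a4, the serotonin transporter gene, had no UMI in the members of any pool. In the alveolar gate Mcoln3 had 61.5 CPM in tolerance, 71.8 in asthma and 114 in control.

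By list, 18 of 20 interstitial macrophage genes were called higher over the alveolar gate and 2 lower (Mertk and Dab2), 9 of 11 MHC class II genes were higher, and each of the 17 alveolar macrophage markers tested was lower. Of the resident macrophage list 12 of 14 tested were higher and 1 lower (Mrc1). Chemokines divided, with 12 higher and 3 lower of 20 tested. Over all genes tested, 16.4% were called higher and 16.8% lower. The median log2 fold change of the interstitial macrophage list was 2.91. For the type I interferon list it was 0.27, with 8 genes higher, 3 lower and 22 not called.

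The Spp1/Arg1 gate lay much closer, with 75 of 7355 genes called higher in the members (1.02%) and 99 lower (1.35%). Hpgd was the gene with the highest fold change (3.75 ± 0.43, adjusted p = 1.22e-05), at 31.1 CPM against 4.96 in tolerance, 63.9 against 0 in asthma and 304 against 19.4 in control. Cx3cr1 was higher by 1.82 ± 0.25 (adjusted p = 0.000117) and Apoe by 1.04 ± 0.24 (adjusted p = 0.0216), although Apoe was at 2096 CPM in members against 2250 in that gate in tolerance. Lower in the members were Timp1, an inhibitor of matrix proteases (-2.58 ± 0.19), and Mmp19, a matrix protease (-2.26 ± 0.20). Csf1, the macrophage growth factor (-3.19 ± 0.36), and Ccl22, a chemokine for T cells (-4.08 ± 0.58), were lower too. Ccl22 had 17.2 CPM against 46.1 in tolerance, 0 against 71.2 in asthma and 3.62 against 2748 in control. This gate set no C1q limit, and its 8 control cells had a median of 0 C1q UMIs. Of the matrix remodelling list 8 of 18 tested were lower and none higher, and of the alternative activation list 10 of 21 were lower and 1 higher. Retnla and Ccl8 were not called (adjusted p = 0.818 and 0.476). These counts rested on single pools: without tolerance 14 genes were higher and 21 lower, without asthma 17 and 48, and without control, which had 8 cells of the gate, 63 and 108. DESeq2 called 9 higher and 29 lower, and edgeR without the pool block 0 higher and 8 lower, with 298 and 259 at an unadjusted p under 0.05.

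Against the cycling C1q gate 235 of 4806 genes were called higher in the members (4.89%) and 352 lower (7.32%). The lower ones with the largest fold changes were cell-cycle genes such as Ccna2 (cyclin A2, -7.70 ± 0.42) and Hmmr (-6.41 ± 0.47), which vary with the rule's own cell-cycle genes. Higher in the non-cycling members were Thbs1, the matrix protein thrombospondin (3.24 ± 0.40), Il1b, the cytokine IL-1β (2.55 ± 0.29), Acp5 (2.04 ± 0.26) and Apoe (1.75 ± 0.22). Of 25 lysosomal genes 10 were higher and none lower, and of 11 MHC class II genes 8 were tested, with 4 higher. Retnla was not called (-1.96 ± 0.87, adjusted p = 0.173). The control pool had 3 cells in this gate. Without tolerance 25 genes were called higher and 172 lower, without asthma 70 and 210, and without control 341 and 563.

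The antibody tag for CLEC12A, a surface lectin, was independent of the rule. Its median per cell was 61 UMIs in members against 51 in the alveolar gate in tolerance, 47 against 34 in asthma and 56 against 28 in control. The members were higher in 3 of 3 pools, by 0.169 on the log10 scale on average (0.0764 in tolerance, 0.137 in asthma and 0.294 in control). The exact two-sided sign-flip permutation test over the 3 pools gave p = 0.25, the smallest that 3 pools allow. The members did not stand highest of the gates compared. In the Spp1/Arg1 gate the CLEC12A medians were 64 in tolerance, 53 in asthma and 106.5 in control. The 8 control cells of that gate had a median of 0 C1q UMIs. In the cycling gate the CLEC12A medians were 68, 93 and 89. Neither gate was tested. Hashtag UMIs, which say nothing of CLEC12A, were lower in the members, with medians of 696 against 1885 in tolerance, 705 against 1524 in asthma and 657 against 1540 in control. Per 1000 antibody UMIs of the cell CLEC12A was at 79.8 against 28.9 in tolerance, 72.9 against 23.6 in asthma and 78.0 against 18.7 in control. Antibody UMIs include the hashtags, so the members' lower hashtag counts enlarge this difference. Clec12a RNA was also higher in the members than in the alveolar gate (1.60 ± 0.13 log2, edgeR adjusted p = 8.79e-06).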

How the data were processed

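Single-cell libraries (10x 3′ v3 chemistry) were processed by the authors, whose processing notes name Cell Ranger 3.1.0, STAR (version not given in the sources used here), Seurat 3.1.5 and the build mm10. The deposited values are raw UMI counts for each gene and barcode, and counts of 4 antibody tags, with treatments separated by hashtag before deposit and no scaling. They cover 31053 genes in 10901 barcodes, of which 661 had over 20% mitochondrial UMIs, 22 had over 20000 UMIs and 619 had under 500 genes, with overlaps. The methods state a gene minimum that no barcode reaches, so 500 genes were used, with 1200 as an alternative. Summed UMIs of the cells kept were 16945649 in tolerance, 21256894 in asthma and 17477830 in control.

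Members of each pool were summed over lanes and scaled to CPM. Ratios have exact conditional Poisson intervals and shares exact Clopper-Pearson intervals (95%), which cover counting error only. No test was run between pools. Gates were compared in edgeR 4.0.16 (R 4.3.3, TMM, filterByExpr, pool as block, adjusted p under 0.05), with DESeq2 1.42.0 as an alternative. The scripts, in Python 3.11.15 with numpy 2.4.6, scipy 1.17.1, pandas 2.3.3, scanpy 1.11.5 and matplotlib 3.10.9, were tested on simulated data. The doublet caller Scrublet did not work at its own threshold, with 3 and 24 cells of lanes 1 and 2 called (0.0585% and 0.484%), so the cells in the top 2% of its scores, among them 3 and 2 members, were left out as an alternative. B cells (Cd79a and Cd79b at least 5 UMIs, C1q under 10 UMIs) served as cells that should lack macrophage genes. That gate did not leave out doublets, and the myeloid gene Lyz2 stood there at 385 CPM in tolerance, 924 in asthma and 4866 in control.

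Genes named in the text were the 6 markers, the 10 with the largest ratio or fold change in each direction that went the same way in both lanes or every pool, and up to 4 members of each list described. Genes named beside these for their level, such as Mertk, Ifitm3, Fabp5 and the genes of the cells low in MHC class II, were chosen after their values were seen. Ribosomal, mitochondrial, haemoglobin and unnamed gene models were counted but not named. The members and the 32 gene lists (459 genes, 2 not in the table) were chosen with earlier results of these data known. Gene positions are from GENCODE M21 (GRCm38). Alternatives were other C1q limits, gene minimum, doublets, lanes, scaling, CPM minimum, pseudocount, thinning, normalization, filter, tool and block. Results for some genes are not reported here.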

Additional observations from a re-analysis of the deposited data

How the results depend on the processing

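Shares moved beyond their intervals under other limits: 20 C1q UMIs gave 9.40% in tolerance, 3.63% in asthma and 1.28% in control, 5 UMIs gave 5.57% and 10 per 10000 UMIs 5.61% in asthma, and a minimum of 1200 genes gave 12.4% in tolerance. A mean of at least 100 CPM left 66 genes higher and 47 lower in asthma over control, 51 and 46 in tolerance over control, and 10 lower in tolerance over asthma, as fewer genes were compared. Cells thinned to 2000 UMIs gave 258 and 172, 227 and 169, and 18 and 30 genes for these comparisons. Single lanes gave 205 to 238 and 152 to 167 in asthma over control, 178 to 188 and 178 to 184 in tolerance over control, and 15 to 15 and 25 to 28 in tolerance over asthma, since a lane alone has no second lane to match. With 20 C1q UMIs 7 genes were higher in tolerance over asthma. Against the Spp1/Arg1 gate there were 119 higher and 150 lower with 20 C1q UMIs, 115 higher without likely doublets, 128 higher with no filter, 9 and 29 by DESeq2, and 14 to 63 and 21 to 108 without a pool. Without the pool block edgeR called 0 higher and 8 lower there, with 298 and 259 at an unadjusted p under 0.05. Without a pool the alveolar gate gave 824 to 2047 and 869 to 2105, and the cycling gate 25 to 341 and 172 to 563. For the cycling gate DESeq2 gave 44 and 193, and edgeR without the pool block 80 higher. The cause was not tested. Of 592 values for 60 genes named by fold change between gates, 540 kept their call and 52 lost it. Of 841 values for 74 named pool ratios, 729 moved by less than the spread and 111 by more, and Ccl7 in tolerance over control turned to 1.01 with cells low in MHC class II left out, an alternative chosen after seeing the data. The CLEC12A difference stayed positive under each alternative run, with 0.173 and 0.179 in single lanes. Per antibody UMIs it was 0.504, a value that the members' lower hashtag counts enlarge. With 57 control cells, genes under about 50 CPM could not be compared between pools.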

Other observations

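Lists of iron handling, matrix and lysosomal genes were also summed in C1q-high macrophages. The iron handling list, led by the ferritin subunits Fth1 and Ftl1, summed to 16507 CPM in tolerance, 12370 in asthma and 18545 in control. Fth1 alone had 9691 CPM in tolerance, 6925 in asthma and 10813 in control. Of its 8 genes above the minimum, 1 was past 2-fold higher (the haem transporter gene Slc48a1) and 2 lower (Hpgd and the transferrin gene Trf) in tolerance over control, and the ferritin genes were not past it. Over all genes compared, 3.84% were past 2-fold higher and 3.77% lower in tolerance over control. The matrix remodelling list summed to 12802 CPM in tolerance, 9851 in asthma and 10643 in control, and 2 of its 13 genes above the minimum were past 2-fold higher in tolerance over control. These were Tgfbi, a matrix protein induced by TGF-β, at 1556 CPM in tolerance, 1490 in asthma and 721 in control, and Mmp14, a membrane-bound collagenase, at 149, 82.6 and 65.2 CPM. Il1rn, the IL-1 receptor antagonist, had 140 CPM in tolerance, 215 in asthma and 47.1 in control, and Pdgfa, a growth factor for mesenchymal cells, 70.6, 64.9 and 25.3 CPM, both past 2-fold higher in each OVA pool over control. The lysosomal list summed to 24926 CPM in tolerance, 21639 in asthma and 20040 in control, and 22 of its 25 genes had a higher CPM in tolerance than in asthma, where 47.1% of all genes with a UMI in either pool did. None of the 23 compared was past 2-fold.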
